A study of Mus musculus with 24 samples.

Results

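The genes described here drive or restrain cell division: 55 genes of DNA replication, the G1/S switch, mitosis and the inhibition of cyclin-dependent kinases, chosen by name. A gene was measured where at least 1 probe set of the array carried its symbol alone. That held for 54 of the 55 genes, through 129 of the 45037 probe sets tested, and Ccnb1 (cyclin B1) had no such probe set. The 54 genes, out of 18193 named on the array, were grouped by role into 25 S-phase genes, 23 genes of mitosis and G2, 3 D-type cyclins and 3 inhibitors. The S-phase genes comprised 15 of replication and nucleotide supply, 5 G1/S regulators and 5 of checkpoint, repair and chromatin. Each gene was represented by 1 probe set, taken by its number and not by its values, and 39 genes had further probe sets.

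Bone marrow from the femurs of mice was cultured into macrophages for 10 days, with the growth factor M-CSF at 20 ng/ml in every culture. Marrow of 3 wild-type (WT) C57Bl/6 mice, numbered 1 to 3, and of 3 STAT6 KO mice, numbered 4 to 6, was used. For the KO mice the paper names no strain. Each mouse gave 4 cultures and 4 arrays. The cultures had either no cytokine added to M-CSF (control) or IL-4 at 20 ng/ml, and either vehicle, a DMSO and ethanol mix, or rosiglitazone (RSG), a synthetic agonist of the nuclear receptor PPARγ, at 1 µM. The 8 groups of 3 arrays asked how IL-4, its transcription factor STAT6 and a PPARγ ligand act together in macrophages. The labels name the genotype as STAT6 KO with no cell type restriction, and no source used here says that the cultures were sorted before the RNA was taken. The 2 Stat6 probe sets read 0.71 to 1.15 in the 12 WT cultures and -2.12 to -1.48 in the 12 KO cultures, so each array matched its genotype label.

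Values are log2 ratios of a probe set on an array to its median of all arrays. A value of 0 is that median, and 1 unit is a change of 2-fold. Such values hold no absolute level, so levels of different genes cannot be set against each other, and precision is limited by how many arrays there are. Changes are differences of group means on this log2 scale with the SE of limma, a linear model fitted over all 45037 probe sets. A call needs both a size of 1.5-fold or more and an adjusted p below 0.05 (Benjamini-Hochberg). In RNA from a whole culture, fewer dividing cells and less RNA per cell cannot be told apart.

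A cell enters the cycle when D-type cyclins with their kinases and cyclin E with Cdk2 free the E2F factors from the pocket proteins. E2F factors turn on the genes of S phase: the Mcm helicase, the loading factors Cdc6 and Cdt1, and the enzymes that make nucleotides. The genes of G2 and mitosis, such as the cyclins A and B, Cdk1, the aurora kinases and the spindle motors, are switched on later through CHR elements and NF-Y boxes in their promoters. The inhibitors p21 (Cdkn1a), p27 (Cdkn1b) and p18 (Cdkn2c) bind cyclin-dependent kinases or their cyclin complexes and hold the cycle back. Macrophage precursors divide in response to M-CSF, and mature macrophages divide little in most settings. IL-4 is known both as a signal for alternative activation and, in some tissues, for the division of resident macrophages.

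RefSeq promoters of assembly GRCm38.p6, from 250 bases before to 50 after the start, were at hand for 45 of the 54 genes. Aurkb, Ccna2, Ccnd1, Ccnd2, Ccne2, Foxm1, Kif20a, Mcm4 and Tpx2 had no entry. The stretches below cover the 160 bases before the start, 5′ to 3′ on the gene's strand, and show both kinds of promoter. They were chosen for their motif matches, from genes described below. Capitals mark the matches on either strand: CHR elements (TTTGAA), NF-Y boxes (CCAAT) and E2F-type sites (TTTCCCGC, TTTCGCGC, TTTGCCGC or TTTGGCGC), where matches that overlap run together. The genes of mitosis shown are Ube2c, a ubiquitin-conjugating enzyme of the anaphase-promoting complex, the proliferation antigen gene Mki67, the topoisomerase gene Top2a, the mitotic kinase gene Cdk1 and the spindle motor gene Kif11. The S-phase genes shown are the helicase subunits Mcm5 and Mcm6, the origin loading factor Cdc6 and E2f8, a repressor of the E2F family. The stretch of E2f8 goes against its class, with a CHR element and an NF-Y box but no E2F-type site. That of Cdk1 holds an E2F-type site beside its CHR elements.
Ube2c, chr2:164769769-164769928, plus strand: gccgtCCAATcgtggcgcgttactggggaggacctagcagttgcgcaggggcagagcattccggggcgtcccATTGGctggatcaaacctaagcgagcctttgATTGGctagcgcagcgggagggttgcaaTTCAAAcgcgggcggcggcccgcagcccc
Mki67, chr7:135716380-135716539, minus strand: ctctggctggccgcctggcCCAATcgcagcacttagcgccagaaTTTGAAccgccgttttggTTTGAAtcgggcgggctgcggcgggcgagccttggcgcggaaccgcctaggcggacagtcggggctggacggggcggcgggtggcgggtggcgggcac
Top2a, chr11:99024190-99024349, minus strand: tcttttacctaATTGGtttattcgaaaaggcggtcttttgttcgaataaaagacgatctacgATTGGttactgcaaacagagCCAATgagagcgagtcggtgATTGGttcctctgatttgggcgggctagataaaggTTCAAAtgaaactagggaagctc
Cdk1, chr10:69352913-69353072, minus strand: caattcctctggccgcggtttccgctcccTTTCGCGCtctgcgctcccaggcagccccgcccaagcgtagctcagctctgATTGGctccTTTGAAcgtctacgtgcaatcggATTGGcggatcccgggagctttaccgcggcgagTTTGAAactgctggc
Kif11, chr19:37376222-37376381, plus strand: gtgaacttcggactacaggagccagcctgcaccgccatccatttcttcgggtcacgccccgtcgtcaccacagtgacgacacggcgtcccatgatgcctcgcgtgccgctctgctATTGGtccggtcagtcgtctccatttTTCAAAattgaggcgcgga
Mcm5, chr8:75109349-75109508, plus strand: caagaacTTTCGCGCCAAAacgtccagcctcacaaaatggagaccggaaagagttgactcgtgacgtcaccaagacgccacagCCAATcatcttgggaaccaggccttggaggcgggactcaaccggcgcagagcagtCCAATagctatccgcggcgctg
Mcm6, chr1:128359706-128359865, minus strand: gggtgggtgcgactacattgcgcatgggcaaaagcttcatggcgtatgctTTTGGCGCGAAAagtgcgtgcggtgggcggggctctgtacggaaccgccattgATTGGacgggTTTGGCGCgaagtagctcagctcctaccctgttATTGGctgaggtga
Cdc6, chr11:98907991-98908150, plus strand: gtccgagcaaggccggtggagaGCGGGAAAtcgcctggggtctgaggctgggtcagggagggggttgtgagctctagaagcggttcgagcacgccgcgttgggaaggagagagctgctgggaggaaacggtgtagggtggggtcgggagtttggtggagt
E2f8, chr7:48881597-48881756, minus strand: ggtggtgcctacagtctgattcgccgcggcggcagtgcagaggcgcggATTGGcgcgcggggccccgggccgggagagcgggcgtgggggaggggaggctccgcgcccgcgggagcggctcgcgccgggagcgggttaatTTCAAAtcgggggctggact

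A CHR element was found in 12 of the 18 mitotic genes with a promoter (66.7%), in 3 of 23 S-phase genes (13.0%) and in 20.2% of the 27025 genes of the promoter table. The order was the other way for E2F-type sites, which 10 of the 23 S-phase genes (43.5%) and 1 of the 18 mitotic genes (5.56%) held against 2.6% of all genes. NF-Y boxes were found in 14 mitotic genes (77.8%), 15 S-phase genes (65.2%) and 41.1% of all genes. The promoters of the 3 inhibitor genes had no match to a CHR element or E2F-type site. Promoters were at hand for 78.3% of the mitotic genes, so as a check of that class the shares are void and describe the 18 genes alone. A list of 38 further spindle and division genes, 84.2% of which had a promoter, held a CHR element in 24 of 32 (75.0%). A match is a run of letters, not a shown site of binding.

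**Figure D1:**
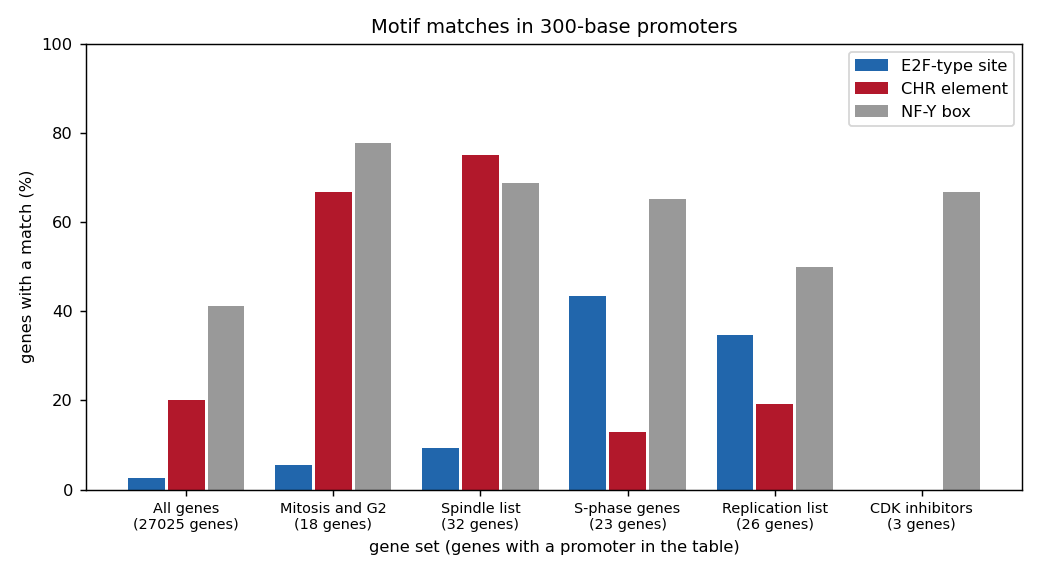
Share of genes (%, from 0 to 100) with at least 1 match to an E2F-type site (blue), a CHR element (red) or an NF-Y box (grey) in the 300 bases around the start, for all genes of the promoter table and for 5 gene sets, with the number of genes under each. The red bar is at 66.7% for mitosis and G2 and 13.0% for S-phase genes, and the blue bar at 5.56% and 43.5%.

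IL-4 in WT cultures with vehicle went with lower mitotic genes. Of the 54 genes 28 fell and 1 rose, where 5.94% of all probe sets fell and 7.01% rose. The median change was -0.86 against 0.09 over all probe sets. By role, 18 of the 23 mitotic genes fell (median -1.87), 8 of the 25 S-phase genes fell and 1 rose (median -0.39), 1 of the 3 D-type cyclins fell and 1 of the 3 inhibitors fell. At the level of probe sets, 46 of 129 fell and 2 rose. The mean over the 23 mitotic genes was 0.10 ± 0.34 (SD, n = 3) in control cultures and -2.05 ± 0.21 with IL-4. Over the 25 S-phase genes it was -0.12 ± 0.11 and -0.49 ± 0.08.

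**Figure D2:**
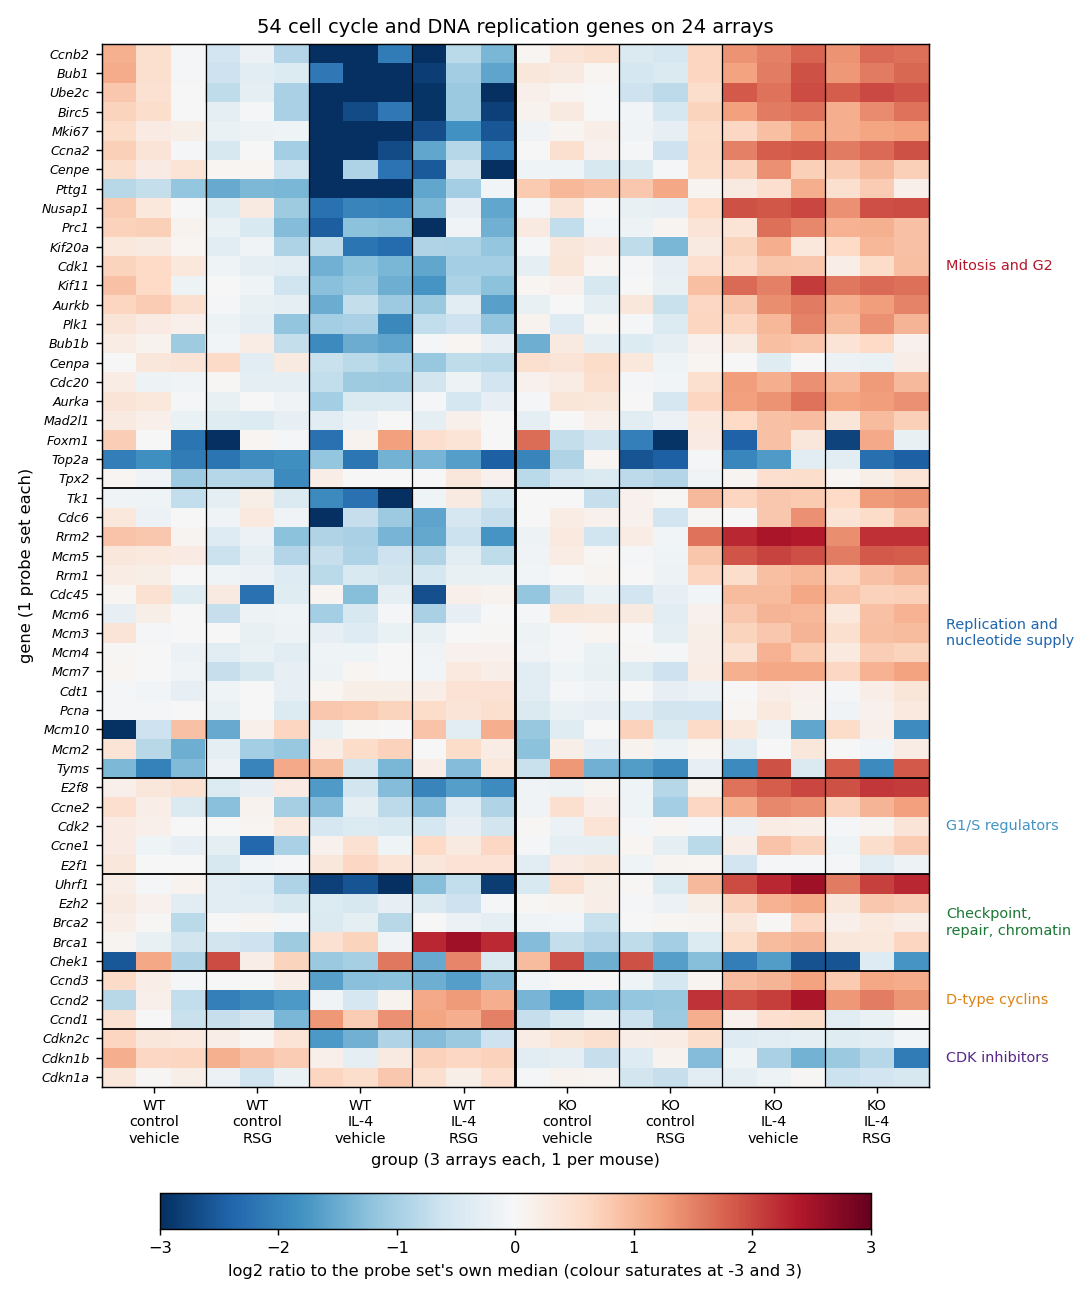
Log2 ratio of each of the 54 genes (rows, 1 probe set each, ordered by role and then by the IL-4 change in WT with vehicle) on the 24 arrays (columns, 3 arrays of different mice per group). Red is above and blue below the gene's own median, with colour saturating at -3 and 3. The mitotic rows are mostly blue in WT IL-4 vehicle cultures, where 18 of 23 fell, and red in KO IL-4 cultures, where 12 rose with vehicle.

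Among the mitotic genes Mki67, the common marker of cycling cells, was lower with IL-4 in all 3 WT mice with vehicle. It stood at 0.56, 0.24 and 0.18 in the control cultures of mice 1, 2 and 3 and at -3.68, -3.44 and -3.18 with IL-4, a change of -3.76 ± 0.23 (SE, adjusted p = 2.9e-09). The groups were far apart and the mice close together. Ccnb2 (cyclin B2), a partner of Cdk1, stood at 1.07, 0.47 and -0.05 without and -6.64, -6.41 and -2.09 with IL-4, a change of -5.54 ± 0.85 (SE, adjusted p = 0.00013). Bub1, a kinase of the spindle checkpoint, stood at 1.12, 0.48 and -0.05 and at -2.15, -5.30 and -6.64, a change of -5.21 ± 0.74 (SE, adjusted p = 6.5e-05). The groups of both genes did not overlap. The single arrays at -6.64 (mouse 1 for Ccnb2, mouse 3 for Bub1) were at 0.01, the lowest ratio in the data, so these sizes are set by that limit, and the IL-4 arrays of each gene spread widely. Ube2c fell as widely, from 0.81, 0.45 and -0.02 to -3.41, -6.37 and -3.17, a change of -4.73 ± 0.64 (SE, adjusted p = 3.5e-05). The IL-4 arrays of mouse 2 for Ccnb2 (-6.41) and Ube2c (-6.37) lay near the lowest ratio too.

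The cyclins and kinases that start mitosis were lower with IL-4 as well. Ccna2 (cyclin A2), which acts in S phase and G2, stood at 0.71, 0.39 and -0.04 in WT control and -3.17, -3.66 and -2.69 in WT IL-4 cultures, a change of -3.53 ± 0.34 (SE, adjusted p = 8.3e-07). Cdk1 stood at 0.67, 0.60 and 0.32 and -1.44, -1.22 and -1.37, a change of -1.87 ± 0.22 (SE, adjusted p = 7.4e-06). Neither gene's groups overlapped. Birc5 (survivin) and Aurkb, subunits of the chromosomal passenger complex, fell by 3.80 and 1.72 on the log2 scale. The kinases Plk1, Bub1b and Aurka fell by 1.57, 1.41 and 0.84. The motors Cenpe, Kif20a and Kif11 fell by 3.14, 1.96 and 1.73. Foxm1, the factor that activates many of these genes, had the smallest change of the class. It lay at 0.73, -0.01 and -2.18 without and -2.23, 0.11 and 1.24 with IL-4, a difference of 0.19 ± 1.27 (SE, adjusted p = 0.95). Its arrays overlapped and spread over several log2 units in most groups, so nothing can be read from its mean.

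The S-phase genes were divided. Uhrf1, which carries DNA methylation through replication, changed most: 0.20, -0.04 and 0.10 in control against -2.81, -2.60 and -3.26 in IL-4 cultures, or -2.97 ± 0.43 (SE, adjusted p = 7.6e-05). Tk1 (thymidine kinase) went from -0.10, -0.14 and -0.74 to -1.92, -2.23 and -3.0, or -2.06 ± 0.32 (SE, adjusted p = 0.00017). Cdc6 went from 0.31, -0.18 and -0.02 to -3.21, -0.70 and -1.09, or -1.71 ± 0.48 (SE, adjusted p = 0.02), with mouse 1 below the others, and the call was lost without mouse 1 or without mouse 3. In all 3 genes every IL-4 array lay below every control array. The ribonucleotide reductase subunits Rrm2 and Rrm1 fell by 1.67 and 0.74, and Mcm5 fell by 1.04. Mcm7, another subunit of the same helicase, stood at 0.07, 0.01 and -0.11 and -0.16, 0.05 and -0.01, a difference of -0.03 ± 0.19 (SE, adjusted p = 0.94), and the groups overlapped.

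Among the G1/S regulators E2f8 fell, from 0.16, 0.33 and 0.45 to -1.70, -0.56 and -1.30, or -1.5 ± 0.26 (SE, adjusted p = 0.00045). Cdk2 went from 0.24, 0.15 and 0.02 to -0.50, -0.42 and -0.46, or -0.60 ± 0.16 (SE, adjusted p = 0.013), a call that was lost when any 1 of mice 1 to 3 was left out. Ccne1 (cyclin E1) had the smallest difference, 0.20 ± 0.38 (SE, adjusted p = 0.81), with arrays of 0.25, -0.14 and -0.24 against 0.13, 0.46 and -0.14 that overlapped. Brca2, a repair gene, differed by -0.32 ± 0.23 (SE, adjusted p = 0.41), with arrays of 0.19, 0.04 and -0.82 against -0.43, -0.30 and -0.83 that overlapped as well. The gene that rose was Pcna, the sliding clamp of the replication polymerases. It stood at -0.04, -0.06 and 0.02 in control and 0.81, 0.79 and 0.67 in IL-4 cultures, a change of 0.78 ± 0.13 (SE, adjusted p = 0.00021) in the direction opposite to the other genes called, with no overlap.

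The cell type markers of these WT cultures moved too. Of 10 markers of neutrophils and granule precursors 8 fell with IL-4 and vehicle, and their mean per array lay between -0.56 and 0.71 in control and between -4.36 and -3.56 in IL-4 cultures. Of 9 macrophage markers 1 rose and 3 fell, 1 of 7 lymphocyte markers rose and 2 of 11 stromal markers fell. The 8 mast cell and basophil markers, 5 progenitor markers and 5 erythroid markers had no call. The mean over the macrophage markers lay between -0.77 and 0.37 on the 24 arrays, and since ratios hold no level the macrophage label itself could not be checked. The part of these cells in the changes of the cell cycle genes was not tested.

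In STAT6 KO cultures with vehicle the same comparison ran the other way: 25 of the 54 genes rose with IL-4 and 1 fell, where 4.25% of all probe sets rose and 7.26% fell. The median change was 0.87, against -0.14 over all probe sets. Of the genes that rose 12 were mitotic (of 23, median 1.17), 11 were S-phase genes (of 25, median 0.81) and 2 were D-type cyclins, and the inhibitor Cdkn2c fell. The class means were 0.02 ± 0.07 (SD, n = 3) and 0.95 ± 0.29 for mitosis and -0.13 ± 0.22 and 0.67 ± 0.21 for S phase, without and with IL-4. Without mouse 5 the count of genes that rose was 16.

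Over all probe sets the share of calls that were higher was 36.9%, and it was 54.0% with arrays centred at their medians and 47.6% after quantile normalization. Under centring and under quantile normalization the fall of Cdkn2c was no longer called.

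Mcm5 stood at -0.10, 0.22 and 0.03 in control cultures of mice 4, 5 and 6 and at 1.89, 2.03 and 1.93 with IL-4, a change of 1.90 ± 0.22 (SE, adjusted p = 1.2e-05). Mcm7 stood at -0.31, -0.12 and -0.22 and 1.06, 1.16 and 1.17, or 1.35 ± 0.19 (SE, adjusted p = 8.2e-05). Rrm2 stood at -0.15, 0.29 and -0.60 and 2.26, 2.44 and 2.37, or 2.51 ± 0.42 (SE, adjusted p = 0.00038). In all 3 genes the 3 IL-4 arrays were close to each other and above the control arrays. Uhrf1 rose by 2.19 ± 0.43, E2f8 by 1.88 ± 0.26 and Brca1, a repair gene of S phase, by 1.81 ± 0.24. Mki67 rose less, from -0.11, 0.09 and 0.19 to 0.63, 0.91 and 1.21, or 0.86 ± 0.23 (SE, adjusted p = 0.014). Ccna2 went from 0.02, 0.49 and 0.14 to 1.52, 1.81 and 1.86, or 1.51 ± 0.34 (SE, adjusted p = 0.0049). The differences of Ccnb2 and Bub1, 1.23 ± 0.85 (SE, adjusted p = 0.41) and 1.34 ± 0.74 (SE, adjusted p = 0.28), did not pass the test, although 1.35, 1.5 and 1.75 for Ccnb2 with IL-4 lay above 0.05, 0.39 and 0.48 without it. Their SE comes from the fit over all groups, in which the WT IL-4 arrays spread widely.

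Markers of other blood cells rose in the same KO cultures. With IL-4 and vehicle all 8 mast cell and basophil markers, all 10 neutrophil and granule precursor markers and all 7 lymphocyte markers rose. Their means per array went from between -1.56 and -0.55 to between 5.39 and 5.84 for mast cells, from between -0.30 and 0.42 to between 3.44 and 3.82 for neutrophils and from between -2.02 and -1.32 to between 3.82 and 4.25 for lymphocytes. The 5 progenitor markers went from between -1.23 and -0.03 to between 2.14 and 2.51, and 1 of them passed the test. Of 9 macrophage markers 1 rose and 3 fell. Ratios hold no level, so none of these lists shows how many such cells were present, and their part in the rise of the cell cycle genes was not tested.

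The difference of the IL-4 response between the genotypes, WT minus KO, was itself tested. With vehicle 36 of the 54 genes had a lower response in WT and 1 a higher one, where 4.73% of all probe sets were lower and 9.84% higher. The median difference was -1.94, against 0.24 over all probe sets. The lower ones were 19 of 23 mitotic genes (median -2.68), 14 of 25 S-phase genes (median -1.24), 2 of 3 D-type cyclins and 1 of 3 inhibitors. The gene with a higher response was the inhibitor Cdkn1a. Over all probe sets, 67.6% of the calls were higher, 52.7% when arrays were centred and 49.5% after quantile normalization. Taking the calls within each genotype, 17 genes fell in WT and rose in KO. Of these, only Mcm5 and Kif11 kept both calls under every alternative way of processing that kept all 8 groups in the fit. Another 10 fell in WT without a call in KO, and 8 rose in KO without a call in WT. Of the rest, 1 fell in both (Cdkn2c), 1 rose in WT alone by call (Pcna) and 17 had no call.

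**Figure D3:**
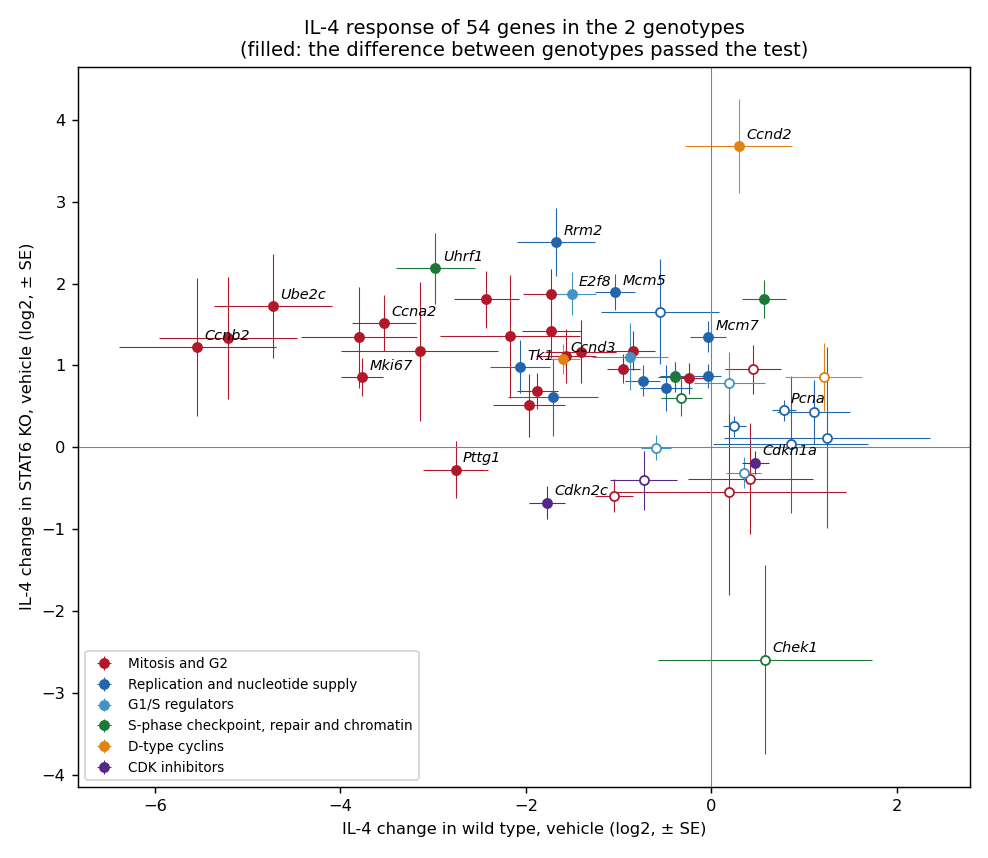
IL-4 change with vehicle in WT (horizontal, log2 ± SE) against STAT6 KO (vertical, log2 ± SE) for the 54 genes, coloured by role, with n = 3 arrays a group. Filled points mark the 37 genes whose difference between genotypes passed the test, and most of them lie in the upper left, lower in WT and higher in KO. Ccnd2 and Mcm7 are high in KO and near 0 in WT.

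The differences between genotypes were -4.62 ± 0.32 (SE, adjusted p = 4.1e-08) for Mki67, -5.04 ± 0.48 (SE, adjusted p = 1.4e-06) for Ccna2 and -5.16 ± 0.61 (SE, adjusted p = 1.3e-05) for Uhrf1. Uhrf1 stood at -0.46, 0.46 and 0.18 and 1.96, 2.25 and 2.54 in KO control and IL-4 cultures, opposite to its fall in WT. Mcm5 differed by -2.94 ± 0.31 (SE, adjusted p = 4.1e-06) and Mcm7, which had no call in WT, by -1.38 ± 0.27 (SE, adjusted p = 0.0015). Ezh2, the histone methyltransferase of the Polycomb group, differed by -1.26 ± 0.26 (SE, adjusted p = 0.0025). Pcna differed by 0.33 ± 0.18 (SE, adjusted p = 0.25) and was not called. The sizes for Ccnb2, Bub1 and Ube2c, -6.77, -6.55 and -6.46, stood at the head of the list. Those of Ccnb2 and Bub1 rest in part on arrays at the lowest ratio, and that of Ube2c in part on 1 array near it.

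Levels in the genotypes were also compared directly. In control cultures with vehicle limma called none of the 54 genes between KO and WT, where KO was higher for 0.0266% and lower for 0.0822% of all probe sets. At an unadjusted p under 0.05 there were 1 higher and 4 lower (2.85% and 6.35% of all probe sets), and the methods' t-test called 0, with 1 and 7 at an unadjusted p. With IL-4 and vehicle 37 genes were higher and 3 lower in KO (6.94% and 17.3% of all probe sets), among them 20 of 23 mitotic genes higher and 0 lower. With IL-4 and RSG 33 were higher and 4 lower (5.79% and 14.2%). The genes lower in KO with vehicle were Cdkn1a (-0.79 ± 0.14), E2f1 (-0.69 ± 0.19), an activator of S-phase genes, and Pcna (-0.60 ± 0.13), and none of these passed when arrays were centred or quantile normalized. With RSG they were Cdkn1b, Brca1, Ccnd1 and Cdkn1a.

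**Figure D4:**
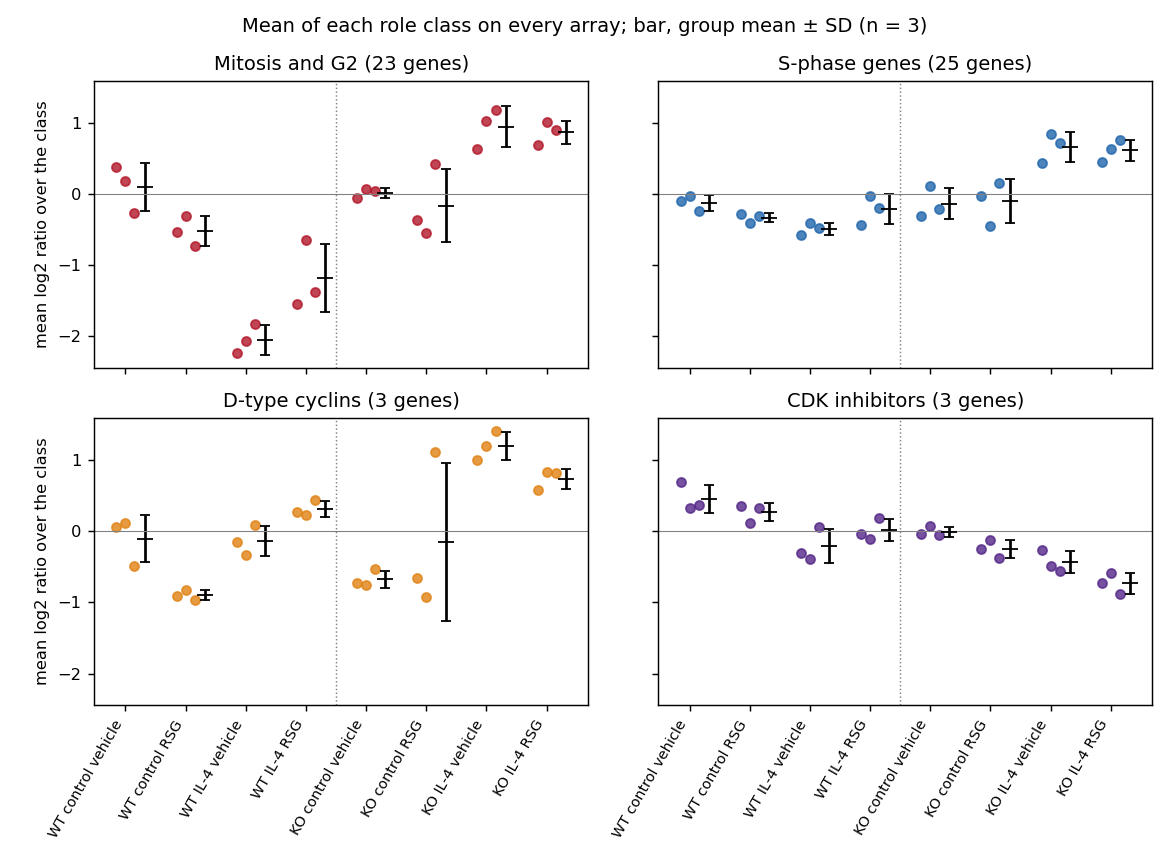
Mean log2 ratio of each role class on every array (points, 1 per mouse) in the 8 groups, with the group mean ± SD (bars, n = 3), on 1 vertical scale. The mitotic class lies at -2.05 ± 0.21 in WT IL-4 vehicle cultures and at 0.95 ± 0.29 in KO IL-4 vehicle cultures, and the S-phase class covers a narrower range, -0.49 ± 0.08 and 0.67 ± 0.21.

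The 3 D-type cyclins, which bind Cdk4 and Cdk6 and start the cycle, did not share 1 pattern. Ccnd3 fell in WT and rose in KO on its representative probe set. It stood at 0.57, 0.19 and -0.07 in WT control and -1.63, -1.25 and -1.22 in WT IL-4 cultures with vehicle, or -1.59 ± 0.18 (SE, adjusted p = 5.7e-06), and at -0.08, 0.00 and 0.00 and 0.92, 1.03 and 1.20 in KO, or 1.08 ± 0.18 (SE, adjusted p = 0.00044). Both pairs of groups were apart. In KO with vehicle 8 of the 13 probe sets of D-type cyclins were called, and the representative was the only called one of Ccnd3. Its calls in WT, in KO and for their difference were each lost under at least 1 alternative that kept all 8 groups. Ccnd2 stood at -0.83, 0.16 and -0.73 and -0.10, -0.50 and 0.10 in WT with vehicle, groups that overlapped and differed by 0.30 ± 0.57 (SE, adjusted p = 0.81). In KO it stood at -1.40, -1.79 and -1.36 and 1.95, 2.08 and 2.46, or 3.68 ± 0.57 (SE, adjusted p = 0.00022), the widest rise of any of the 54 genes in that comparison, and all 7 of its probe sets were called. With RSG, WT Ccnd2 stood at -2.05, -1.90 and -1.72 in control and 1.13, 1.27 and 1.10 in IL-4 cultures, or 3.05 ± 0.57 (SE, adjusted p = 0.00091). Ccnd1 stood at 0.45, 0.00 and -0.66 and 1.29, 0.76 and 1.38 in WT with vehicle, or 1.21 ± 0.41 (SE, adjusted p = 0.053), which did not pass although the groups were apart, and it passed with the mouse as a block (adjusted p = 0.043). With RSG it went from -0.69, -0.56 and -1.38 to 1.18, 1.08 and 1.51, or 2.13 ± 0.41 (SE, adjusted p = 0.0012).

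In KO control cultures with RSG, Ccnd2 stood at -1.15, -1.13 and 2.17 and Ccnd1 at -0.65, -1.10 and 1.09, with mouse 6 apart from the others. The 11 stromal markers had a mean of 4.32 on that array and of 1.16 and 1.34 on the arrays of mice 4 and 5. The part of stromal cells in these values was not tested. Ccnd2 in KO with IL-4 and RSG stood at 1.30, 1.54 and 1.33, a difference of 1.43 ± 0.57 (SE, adjusted p = 0.15), which did not pass.

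The CDK inhibitors did not mirror the cyclins. Cdkn1a (p21), a p53 target, stood at 0.33, 0.03 and 0.18 in WT control and 0.64, 0.53 and 0.80 in WT IL-4 cultures with vehicle, a difference of 0.47 ± 0.14 (SE, adjusted p = 0.03) that was under 1.5-fold. In KO it stood at -0.03, 0.11 and 0.08 and -0.29, -0.16 and 0.04, or -0.19 ± 0.14 (SE, adjusted p = 0.47). The responses differed by 0.66 ± 0.20 (SE, adjusted p = 0.034) between genotypes, a call that was lost when any 1 mouse was left out and when arrays were centred. With RSG Cdkn1a went from -0.17, -0.59 and -0.20 to 0.48, 0.17 and 0.51 in WT, or 0.71 ± 0.14 (SE, adjusted p = 0.0018), with no overlap. Cdkn1b (p27) stood at 1.10, 0.62 and 0.64 and 0.16, -0.27 and 0.28, or -0.73 ± 0.36 (SE, adjusted p = 0.2), and with the mouse as a block its adjusted p was 0.048. Its other probe set fell in WT by 0.80 and in KO by 0.68 on the log2 scale. In KO the representative stood at -0.32, -0.28 and -0.70 and -0.12, -0.97 and -1.42, or -0.40 ± 0.36 (SE, adjusted p = 0.55).

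Cdkn2c (p18), an inhibitor of Cdk4 and Cdk6, fell with IL-4 in both genotypes. It went from 0.64, 0.33 and 0.29 to -1.72, -1.43 and -0.90 in WT, or -1.77 ± 0.20 (SE, adjusted p = 4.4e-06), and from 0.23, 0.37 and 0.47 to -0.38, -0.33 and -0.26 in KO, or -0.68 ± 0.20 (SE, adjusted p = 0.026). Neither pair of groups overlapped. The responses differed, with a larger fall in WT, by -1.09 ± 0.28 (SE, adjusted p = 0.012) for WT minus KO. The call in KO was lost without mouse 2, 4, 5 or 6.

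**Figure D5:**
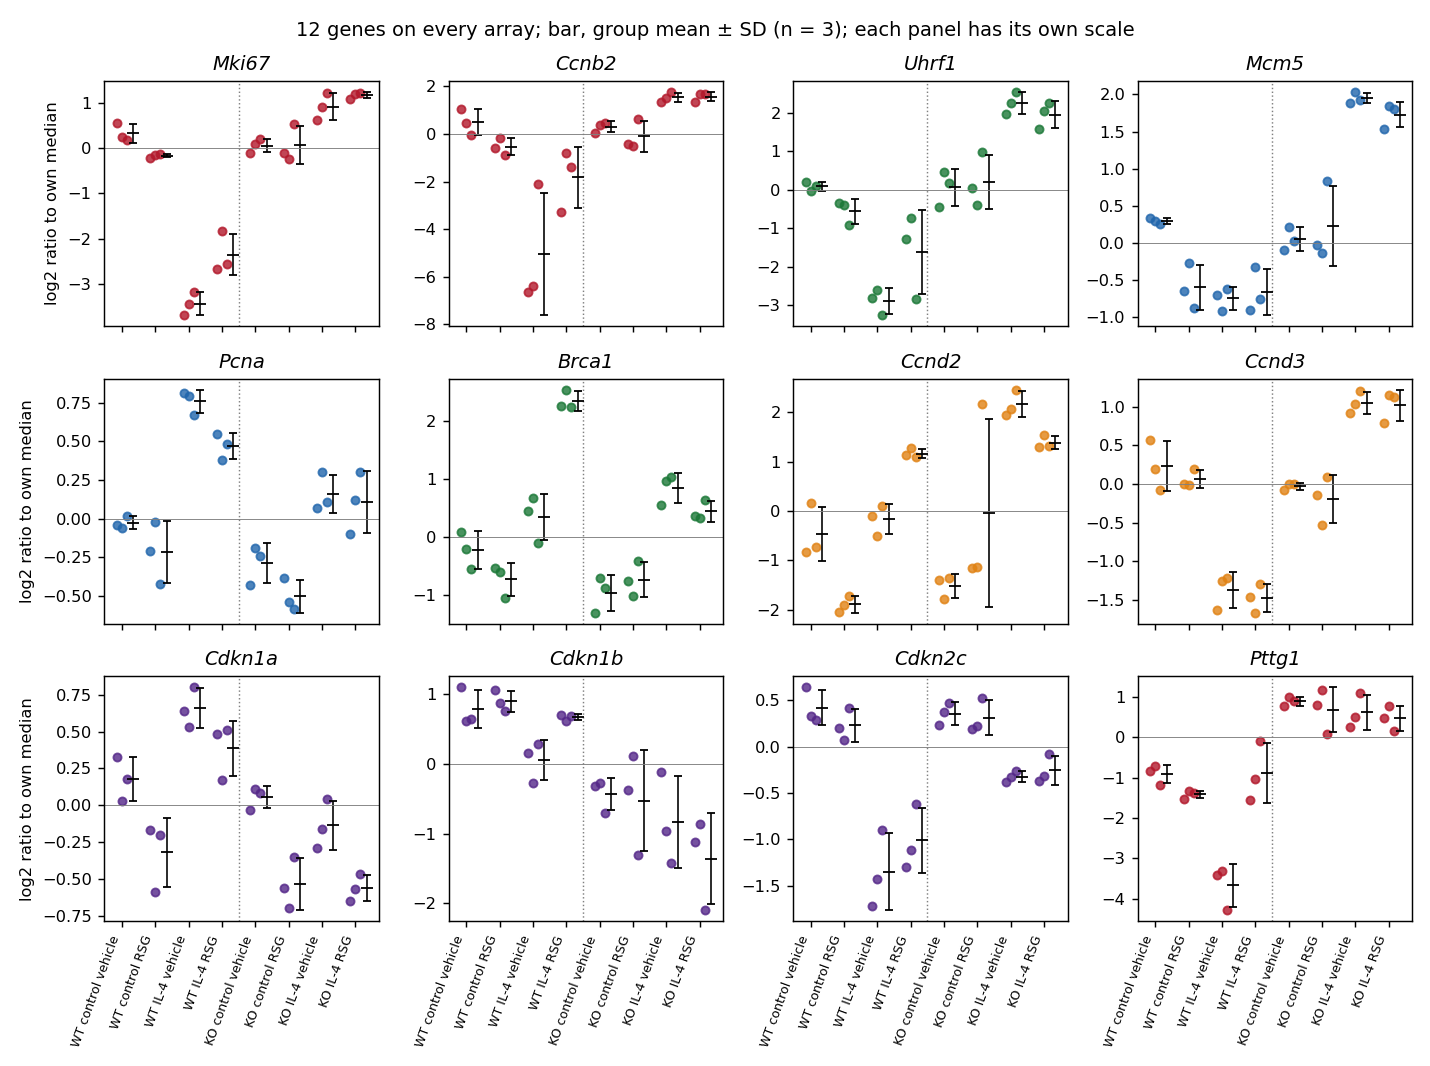
Log2 ratio of 12 genes on every array (points, 1 per mouse) in the 8 groups, with the group mean ± SD (bars, n = 3), each panel on its own vertical scale. Mki67, Ccnb2, Uhrf1 and Ccnd3 are lowest in WT IL-4 cultures, Ccnd2 is on average highest in KO IL-4 vehicle cultures, and Pcna is highest in WT IL-4 vehicle cultures.

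With RSG in place of vehicle, the IL-4 response of WT cultures was split: 9 genes rose and 8 fell (7.87% and 5.59% of all probe sets), with a median of -0.15 against 0.06 over all probe sets. Of the mitotic genes 5 fell and 1 rose (median -0.86), and of the S-phase genes 1 fell and 5 rose (median 0.01). Mki67 fell, from -0.21, -0.16 and -0.13 to -2.67, -1.82 and -2.56, or -2.18 ± 0.23 (SE, adjusted p = 1.9e-06). E2f8 went from -0.41, -0.25 and 0.25 to -1.98, -1.65 and -1.89, or -1.70 ± 0.26 (SE, adjusted p = 0.00013). Brca1 rose most, from -0.54, -0.61 and -1.06 to 2.26, 2.54 and 2.24, or 3.09 ± 0.24 (SE, adjusted p = 4.1e-08). None of these groups overlapped. On 1 further probe set Brca1 stood at -0.11, 0.56 and -0.04 and 0.14, 0.28 and 0.12, groups that overlapped. On its other further probe sets it was higher with IL-4 in each mouse. Tk1 did not pass, at -0.30, 0.18 and -0.44 and -0.12, 0.26 and -0.53, or 0.06 ± 0.32 (SE, adjusted p = 0.94). Without mouse 1 the count that fell was 5. Cell type markers moved in these cultures too: 6 of 10 neutrophil and granule precursor markers fell, with list means per array from -0.73 to 0.18 in control and from -4.23 to -3.28 with IL-4. Of the 8 mast cell and basophil markers 2 rose, with means from -1.65 to -0.73 and from -0.17 to 1.35. Of 7 lymphocyte markers 3 rose, and of 9 macrophage markers 1 rose and 3 fell. The part of these cells in the counts was not tested.

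In KO with RSG 20 genes rose and 0 fell with IL-4 (3.19% and 3.64% of all probe sets), with a median of 0.81 against -0.07. They were 10 mitotic genes, 9 S-phase genes and Ccnd3. Mcm5 stood at -0.03, -0.14 and 0.84 and 1.53, 1.84 and 1.81, or 1.51 ± 0.22 (SE, adjusted p = 0.00027), with mouse 6 above the others in the control group. The marker means with IL-4 and RSG ran from 5.87 to 6.15 for mast cells, from 3.56 to 3.85 for neutrophils and from 3.12 to 3.72 for lymphocytes. The stromal means ran from 1.16 to 4.32 in control and from -0.37 to -0.27 with IL-4, and of the 11 stromal markers 3 fell and 1 rose. The part of these cells was not tested, and without the 2 arrays highest in stromal markers, 1 of them in this comparison, the count that rose was 23. The count was 11 without mouse 4 and 4 without mouse 5, and the methods' t-test called 0. At an unadjusted p under 0.05, 2 were lower by limma (13.5% of all probe sets) and 1 by the methods' t-test. With the mouse as a block Cdkn1b was called lower (adjusted p = 0.042). The response differed between genotypes, WT minus KO, by a lower value for 18 genes and a higher one for 3, Ccnd1, Brca1 and Cdkn1a, where 3.69% of all probe sets were lower and 7.5% higher. Without mouse 5 the lower ones numbered 10.

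RSG itself was compared with vehicle in each setting. In WT control cultures limma called 0 of the 54 genes (0.0466% of all probe sets higher, 0.0711% lower), with 0 higher and 17 lower at an unadjusted p under 0.05, where 2.96% of all probe sets were higher and 4.6% lower. The methods' t-test called 0, with 0 and 15 at an unadjusted p. The median difference was -0.68 for the mitotic and -0.30 for the S-phase genes. Ccnd2 stood at -0.83, 0.16 and -0.73 with vehicle and -2.05, -1.90 and -1.72 with RSG, groups that were apart and differed by -1.42 ± 0.57 (SE, adjusted p = 0.56). The mean over the 11 stromal markers was 2.32 for mouse 2 in the WT control vehicle group and 4.32 for mouse 6 in the KO control RSG group, and without these 2 arrays Ccnd2 was called lower. In KO limma called 0 genes in control cultures (0.0755% higher and 0.0622% lower of all probe sets, 1 higher and 1 lower at an unadjusted p, against 3.06% and 4.95% of all probe sets) and 0 with IL-4 (0.124% and 0.391%, 0 and 1 at an unadjusted p, against 4.23% and 4.29%). The methods' t-test called 0 in both and had 0 higher and 2 lower at an unadjusted p in KO control and 0 and 4 with IL-4.

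In WT cultures with IL-4, RSG went with 5 higher genes and 0 lower (0.331% and 0.357% of all probe sets), and 13 were higher and 2 lower at an unadjusted p (4.0% and 5.02% of all probe sets). This comparison shares the WT IL-4 vehicle arrays with the IL-4 response given above. None was called by the methods' t-test or when only the 6 arrays compared were fitted. Pttg1 (securin), which holds back the separation of sister chromatids until anaphase, stood at -3.42, -3.30 and -4.28 with vehicle and -1.55, -1.03 and -0.08 with RSG, or 2.78 ± 0.35 (SE, adjusted p = 0.00045). Tk1 went from -1.92, -2.23 and -3.0 to -0.12, 0.26 and -0.53, or 2.25 ± 0.32 (SE, adjusted p = 0.0016), a call lost without mouse 2. Brca1 went from 0.45, 0.67 and -0.10 to 2.26, 2.54 and 2.24, or 2.01 ± 0.24 (SE, adjusted p = 0.00026). All 3 genes had groups that were apart. Ccna2 went from -3.17, -3.66 and -2.69 to -1.57, -0.86 and -2.05, or 1.68 ± 0.34 (SE, adjusted p = 0.025), and Mki67 from -3.68, -3.44 and -3.18 to -2.67, -1.82 and -2.56, or 1.09 ± 0.23 (SE, adjusted p = 0.03). Leaving out 1 mouse ended the call of Ccna2 or Mki67 in each case, and that of both without mouse 1, 2, 4 or 5.

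The probe sets of these genes did not respond alike. Pttg1 had 2 further probe sets, of which the first by number differed by 1.20 ± 0.26 and was called, and the other by 0.71 ± 0.17 and was not. On the first the WT IL-4 cultures stood at -4.08, -4.19 and -3.76 with vehicle and -3.21, -1.96 and -3.25 with RSG. The other probe set of Ccna2 differed by 0.42 ± 0.28 and was not called. No further probe set of Brca1 was called. The flattest stood at 0.39, 0.29 and -0.19 with vehicle and 0.14, 0.28 and 0.12 with RSG. Its other further probe sets were higher with RSG in each mouse. Pttg1 was also the gene that differed between KO and WT in control cultures with RSG (1 higher and 0 lower, where 0.0266% and 0.0733% of all probe sets were called). It stood at -1.52, -1.34 and -1.38 in WT and 0.80, 1.17 and 0.08 in KO, or 2.10 ± 0.35 (SE, adjusted p = 0.021), a call lost without mouse 1, 2, 4 or 5. Its levels in WT and KO control cultures with vehicle, -0.84, -0.72 and -1.17 and 0.78, 0.99 and 0.91, were apart too, and on that probe set the difference was 1.80 ± 0.35 (SE, adjusted p = 0.051), while its other 2 probe sets differed by 1.78 ± 0.26 and 1.61 ± 0.17 and were called.

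The difference of the RSG response with and without IL-4, which is also that of the IL-4 response with RSG and vehicle, was called for 2 genes in WT, both higher (0.0178% of all probe sets higher, 0.0111% lower), with 22 higher and 0 lower at an unadjusted p (3.08% and 2.99% of all probe sets). They were Pttg1 at 3.29 ± 0.49 (SE, adjusted p = 0.031) and Brca1 at 2.51 ± 0.33 (SE, adjusted p = 0.016). No other probe set of either gene was called: those of Pttg1 differed by 1.64 ± 0.37 and 1.22 ± 0.24, and those of Brca1 by 2.80 ± 1.82, 2.03 ± 1.29 and -0.89 ± 0.36. With the mouse as a block 1 was left, since Pttg1 then had an adjusted p of 0.090, and neither passed without mouse 1, 2, 4 or 5. For the other genes a difference between the vehicle and RSG settings was not called. In KO limma called 0 (0.00444% and 0.0666% of all probe sets), with 0 higher and 1 lower at an unadjusted p (4.65% and 2.97% of all probe sets), and the methods' t-test does not cover such a difference.

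Lists of other genes of the same pathway were read alongside. With IL-4 and vehicle, 5.94% of all probe sets fell and 7.01% rose in WT, and 4.25% rose and 7.26% fell in KO. Of 38 further genes of spindle, kinetochore and division, 23 fell with IL-4 in WT with vehicle (median -1.06) and 15 rose in KO (median 0.82). In WT they included the kinetochore genes Cenpf (-3.76 ± 0.59) and Ndc80 (-2.89 ± 0.58), the cytokinesis regulator Racgap1 (-3.36 ± 0.54) and the mitotic kinase Pbk (-2.64 ± 0.38). Of 33 further genes of the replication machinery, 6 fell and 1 rose in WT, and 11 rose in KO. The polymerase ε subunit Pole changed by -2.57 ± 0.36 in WT and 1.30 ± 0.36 in KO, and the primase subunit Prim1 by -1.81 ± 0.16 and 1.26 ± 0.16. Dut, which removes dUTP, rose in WT by 2.90 ± 0.91.

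Of 18 pocket proteins, G1 kinases, E2F factors and further inhibitors, 2 fell and 3 rose in WT with vehicle and 5 rose and 3 fell in KO. Over all probe sets 5.94% fell and 7.01% rose in WT, and 4.25% rose and 7.26% fell in KO. E2f2, an activator of S-phase genes, fell in WT by 3.97, and E2f7, a repressor, changed by -2.37 ± 0.38 in WT and 1.17 ± 0.38 in KO. Cdkn2a, which encodes p16 and p19, rose in WT by 2.67 ± 0.79. Myc, which promotes growth and division, rose in both, by 1.59 ± 0.20 and 1.45 ± 0.20. Of 11 p53 targets other than Cdkn1a, 2 rose in WT, Gadd45a (1.43 ± 0.14) and Phlda3 (1.00 ± 0.28). In KO 2 of the 11 rose, Perp (6.04 ± 1.57) and Btg2 (1.515 ± 0.286). In the same comparison 5 fell, among them Trp53inp1 (-1.47 ± 0.18) and Zmat3 (-1.38 ± 0.16).

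Further probe sets of the 54 genes gave no opposite calls in any of the 16 comparisons. Not all of them followed the representative. In KO with vehicle the other probe set of Aurka stood at -0.70, 0.18 and -0.67 without and -1.55, -1.03 and -1.54 with IL-4. It was thus lower with IL-4, where the representative rose, and was not called. The other probe set of E2f8 was called with IL-4 and vehicle in neither genotype. Counting a gene by any of its probe sets, 31 fell and 2 rose with IL-4 in WT with vehicle, and 29 rose and 3 fell in KO. Top2a, which untangles chromosomes, differed by 0.42 ± 0.67 (SE, adjusted p = 0.77) in WT on its representative probe set, whose median ratio was under 1, while its other 2 probe sets fell by 2.36 and 2.27 in WT and rose by 1.48 and 1.58 in KO. Prc1, a spindle midzone gene, fell by 2.68 on another probe set than its representative. Mcm2 and Mcm10 rose in KO by 1.61 and 1.13 on other probe sets. The representatives of Chek1 and Tyms also had a median ratio under 1.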

How the data were processed

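RNA of 24 macrophage cultures was hybridised to Affymetrix mouse genome arrays, 1 array per culture, and groups and mouse numbers came from the labels. The values deposited by the authors are ratios, linear and not logged. By the study's methods they were made with GC-RMA in GeneSpring, with each array scaled to its 50th percentile and each probe set divided by its median over the arrays. A further division by the vehicle control, named there, is not seen in the values. GCOS and GCRMA are the tools in the submitters' processing notes, with no version. The ratios ran from 0.01 to 1949.689, and 37 values were at the lowest one, 2 of them among the genes described. A median of 1, with a tolerance of 0.001, was found in 38889 probe sets (86.3%), and in 6148 it was lower. The background signal, and so the depth behind a value, is unknown.

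Ratios were taken to log2 without further scaling and without a pseudocount. The fit used limma 3.58.1 (R 4.3.3) on 45037 of the 45101 probe sets, without the 64 of Affymetrix's controls (lmFit and eBayes without a variance trend, 8 groups, 16 residual and 1.35 prior degrees of freedom, two-sided). In each of 16 comparisons a call needed a change of 1.5-fold or more and an adjusted p (Benjamini-Hochberg) below 0.05. The platform annotation gave 1 symbol for 34945 probe sets, several for 932 and none for 9160. A gene was represented by its lowest-numbered probe set, those ending in _x_at last. Values of every array are given for D-type cyclins, inhibitors, in each other class the 2 called genes with the largest and the 1 gene with the smallest IL-4 change in WT with vehicle, genes called for RSG, and some genes added after their values were seen. From each list of other pathway genes up to 4 called genes were named. The members and the lists were chosen with earlier results of these data known. The limma fit was run on simulated data with normal noise and with changes set in 1 group. That run held no limit at a lowest ratio and no difference between responses, so it does not bear on these.

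Equal numbers mark cultures of 1 mouse and so pair them. The deviations of such cultures from their group means were barely related (mean correlation 0.0106, from -0.0229 to 0.0462, with 0 of 36 pairs over 0.1). The labels name the mice as biological replicates. Alternatives were the mouse as a replicate block, the methods' t-test (equal variances, log2 values), a fit to the compared arrays only, centring or quantile normalization of the arrays, a variance trend, probe sets with a median ratio of 1, 2 other ways to represent a gene, no minimum fold, and leaving out each mouse or arrays that stood apart. Promoters were RefSeq's (GRCm38.p6). Motifs were searched on both strands with Python 3.11.15, and a CHR element, NF-Y box and E2F-type site could overlap.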

Additional observations from a re-analysis of the deposited data

Results flagged for a closer look

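The IL-4 response differed between genotypes by limma's interaction test (1.5-fold or more at an adjusted p below 0.05) for many of the 54 genes. With vehicle, 36 genes had a lower and 1 a higher response in WT than in KO. With RSG, 18 had a lower and 3 a higher one. The RSG response of WT cultures with IL-4 differed from that without it for 2 genes, both higher with IL-4. These counts were flagged because the test was of the difference itself.

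For 17 genes the response was also called in each genotype with opposite signs, a fall in WT and a rise in KO, with vehicle. This holds for their representative probe sets. Not all further probe sets of the 17 genes shared it, and those of Aurka, E2f8 and Ccnd3 are examples. Over all mitotic probe sets, 16 of 48 rose and 1 fell with IL-4 in KO with vehicle. Of the 17 genes, only Mcm5 and Kif11 kept both calls under every alternative that kept all 8 groups in the fit. The differences, WT minus KO on the log2 scale, were as follows in the S-phase genes. They were -2.94 for Mcm5, -1.55 for Rrm1, -4.19 for Rrm2, -3.04 for Tk1, -3.38 for E2f8 and -5.16 for Uhrf1. Among the mitotic genes they were -4.62 for Mki67, -5.04 for Ccna2, -2.56 for Cdk1, -1.91 for Cdc20, -2.02 for Aurka, -3.14 for Aurkb and -2.58 for Bub1b. They were -2.68 for Plk1, -3.60 for Kif11 and -4.24 for Nusap1. The D-type cyclin Ccnd3 differed by -2.67.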

How the results depend on the processing

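Counts of genes called with IL-4 moved with fits of fewer arrays and with the methods' t-test. Of the 29 genes called with IL-4 in WT with vehicle, 17 were called under every alternative that kept all 8 groups in the fit, as were 9 of 26 in KO, 3 of 20 in KO with RSG and 21 of 37 for the difference between genotypes with vehicle. Signal over background is unknown, so how far it limits these values could not be read.

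With only the compared arrays in the fit, IL-4 in WT with vehicle lowered 17 genes in place of 28, with RSG 3 rose and 4 fell in place of 9 and 8, in KO with vehicle 0 fell, and in KO with RSG 1 rose (E2f8) in place of 20. The difference between genotypes then had 0 higher with vehicle and 1 with RSG, KO minus WT in control cultures with RSG 0, RSG in WT with IL-4 0, and the difference of the RSG response in WT 0. The methods' t-test gave 12 lower in WT with vehicle, 3 higher and 3 lower with RSG, 0 higher in KO with RSG, 0 for KO minus WT in control cultures with RSG and 0 for RSG in WT with IL-4.

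Centring each array left 0 genes lower in KO with vehicle, 0 with a higher difference between genotypes with vehicle, 1 higher (Pttg1) for KO minus WT in control cultures with vehicle and 0 lower with IL-4 and vehicle. Quantile normalization gave 0, 0, 1 (Pttg1) and 0 for the same counts, 1 in place of 3 for the higher differences between genotypes with RSG and 3 in place of 5 for RSG in WT with IL-4.

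Genes higher with IL-4 in WT with vehicle, 1 in the fit reported, were 2 with the mean of a gene's probe sets, with a median ratio of 1, with a variance trend or with the mouse as a block (Ccnd1 added), 2 with no minimum fold (Cdkn1a added) and 3 without the 2 arrays high in stromal markers (Ccnd1 and Ccnd2 added). Genes lower in KO with vehicle were 2 with the mean of the probe sets, with a median ratio of 1 (Cenpa added in both) or with the highest-mean probe set (Cdkn1b added). KO minus WT in control cultures with vehicle had 1 higher (Pttg1) with the mean of the probe sets or a median ratio of 1, and with RSG 0 under a variance trend. The higher difference between genotypes with vehicle was 0 when mouse 3's WT control vehicle array was left out and 0 without the stromal-high arrays, where RSG in WT control lowered 1 gene (Ccnd2). In KO with RSG 1 gene fell (Cdkn1b) with the mean of the probe sets. The difference of the RSG response in WT was called for 1 gene with the mean of the probe sets (Pttg1) or a variance trend (Brca1).

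With the mouse as a replicate block, 29 genes fell and 2 rose in WT with vehicle, 26 rose in KO, 23 rose and 1 fell in KO with RSG (Cdkn1b), 37 were lower in the difference between genotypes with vehicle, 6 rose with RSG in WT with IL-4 and 1 was left for the difference of the RSG response in WT (Brca1). The pairing moved no other count by more than 1.5 times.

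Leaving out 1 mouse at a time gave 22 to 29 lower and 1 to 2 higher for IL-4 in WT with vehicle, 5 to 9 lower and 6 to 9 higher with RSG, 16 to 26 higher and 0 to 2 lower in KO with vehicle and 4 to 22 higher and 0 to 0 lower in KO with RSG. The difference between genotypes had 29 to 34 lower and 0 to 0 higher with vehicle and 10 to 17 lower and 1 to 2 higher with RSG. KO minus WT had 34 to 38 higher and 1 to 3 lower with IL-4 and vehicle, 30 to 34 and 3 to 5 with IL-4 and RSG, 0 to 0 in control cultures with vehicle and 0 to 1 higher with RSG. RSG in WT had 2 to 5 higher with IL-4 and 0 to 1 lower without it, and the difference of these 0 to 3 higher.

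Signs turned in 20 values, 16 on another probe set of the gene and 4 with the mean of its probe sets. For Top2a the IL-4 change in WT was -1.40 (mean of probe sets), -2.36 (median ratio of 1) and -2.27 (highest mean) with vehicle and -1.01, -1.77 and -1.40 with RSG, in KO 1.48 and 1.58 (the last 2 settings), and the difference between genotypes -2.29, -3.84 and -3.85. Pttg1 in WT with RSG was -0.85 (mean of probe sets). With the highest-mean probe set Tpx2 in KO was -0.47, Mcm10 in KO with RSG 0.79, the difference between genotypes -2.96 for Chek1, -1.16 for Mcm10 and -1.75 for Mcm2, and KO minus WT with IL-4 and vehicle 2.86, 1.30 and 1.43 for them. The cause was not tested.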
